A study of Mus musculus with 16 samples.

Results

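Meiotic strand invasion genes encode the recombinases, loaders and cofactors that carry a broken chromosome end into its homolog. The set comprises 9 genes chosen by symbol (Dmc1, Brca2, Hsf2bp, Tex15, Rad51ap2, Psmc3ip, Mnd1, Meiob and Spata22), matched through Ensembl gene identifiers without their version. All 9 were found among the 55414 gene rows of the deposited tables, and all 9 passed the filter on low values in every comparison. RNA had been sequenced from mouse testes in 16 libraries, and the series' title places a late function of the RNA helicase YTHDC2 in spermatocytes at the centre of the study.

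Testes came from mice at postnatal day 14 (P14) or 16 (P16), and every group had been given 10 mg/ml tamoxifen, at P12 and again at P13. Control mice gave 2 libraries at P14 and 2 at P16. Cre control mice gave 2 at P14 and 4 at P16. Mice with a Ythdc2 conditional knockout (cKO) gave 3 at each stage. Tamoxifen serves to activate an inducible Cre recombinase, which cuts out a marked stretch of the target gene. The labels name neither the Cre line nor its promoter, nor the alleles of the control and Cre control mice, nor whether a library came from 1 animal or several. They also do not say that replicates were separate animals, so the p-values measure the spread between these samples. The controls and cKO libraries 1 and 2 of each stage had been depleted of ribosomal RNA with a Ribo-Zero kit (the first kit). The Cre controls and cKO library 3 of each stage had been depleted with a NEBNext kit (the second kit). Per the column names, no sequencing run held libraries of both kits, so a difference between kits is also one between runs. Reads on genes numbered 22220565 to 27531529 per library in the first kit, and between 14494867 and 23200252 per library in the second. Whole testis mixes germ cells with Sertoli, Leydig, peritubular and blood-borne cells. The germ cell markers Ddx4 and Dazl and the Sertoli marker Amh were present in every library. The Leydig marker Insl3 was at 0 in at least 1 library of each deposited table. Ythdc2 (ENSMUSG00000034653), the targeted gene, was at 32.9% of the control mean at P14 and 19.8% at P16 in the cKO libraries of the first kit. In the second kit the cKO library was at 23.0% of the Cre control mean at P14.

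During the leptotene and zygotene stages of meiosis, programmed DNA breaks are cut back to single strands. DMC1, a recombinase found only in meiosis, coats these strands and searches the homolog for a matching sequence. BRCA2 takes part in loading it, HSF2BP brings BRCA2 to meiotic breaks, the HOP2-MND1 pair helps DMC1 to invade, and the MEIOB-SPATA22 pair holds single-stranded DNA.

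Promoter windows were available for 7 of the 9 genes in RefSeq's table on mouse build GRCm38.p6, with none for Meiob and Tex15. The windows are shown because several of these genes moved together at P16, and each was searched on both strands for 3 motifs. The E2F motif GCGGGAA, bound by cell-cycle regulators, was found in 3 of the 7 windows of 250 bases before the start, against 3.82% of 32851 promoter windows. The motif CNCCTCAG, bound by the meiotic activators STRA8 and MEIOSIN, was in 0 of the 7 (6.42% of all windows), and the E-box CACGTG in 0 of the 7 (6.02%). Of the genes that fell at P16 in the first kit, Dmc1 and Psmc3ip had windows without the E2F motif. The shares over all windows were not matched for base content. A match is a description of letters and no match says only that those letters are not in the window. The windows of Brca2 (chr5:150522371-150522620, plus strand), Rad51ap2 (chr12:11455805-11456054, plus strand) and Dmc1 (chr15:79605110-79605359, minus strand) follow, with 21 bases around the match of Hsf2bp (chr17:32034545-32034565, minus strand). Capitals mark the E2F motif, read on the other strand in Hsf2bp, and Dmc1 has no capitals because its window holds none of the 3 motifs.
Brca2: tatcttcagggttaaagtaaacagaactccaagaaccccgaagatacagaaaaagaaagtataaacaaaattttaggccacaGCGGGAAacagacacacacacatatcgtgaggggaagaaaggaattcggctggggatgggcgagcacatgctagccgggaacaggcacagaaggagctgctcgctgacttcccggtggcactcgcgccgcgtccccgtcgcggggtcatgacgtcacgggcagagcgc
Rad51ap2: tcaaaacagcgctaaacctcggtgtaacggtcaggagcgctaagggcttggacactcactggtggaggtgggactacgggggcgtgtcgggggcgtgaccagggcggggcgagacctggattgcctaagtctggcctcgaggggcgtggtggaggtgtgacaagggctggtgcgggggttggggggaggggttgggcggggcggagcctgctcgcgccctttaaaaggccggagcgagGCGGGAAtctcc
Dmc1: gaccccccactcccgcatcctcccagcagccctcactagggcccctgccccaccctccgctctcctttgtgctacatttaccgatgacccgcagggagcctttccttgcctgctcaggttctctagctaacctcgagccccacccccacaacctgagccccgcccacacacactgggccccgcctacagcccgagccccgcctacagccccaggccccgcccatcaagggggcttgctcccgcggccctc
Hsf2bp: cttaagaTTCCCGCgtttttg
The match began 168 bases before RefSeq's start in Brca2, 50 in Hsf2bp and 12 in Rad51ap2. For Rad51ap2 and Spata22, the bases checked just after RefSeq's start were not found in a GENCODE M21 transcript of the gene.

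The level per transcript length of the 9 genes ran from a mean of 4.27 to 59.6 CPM per kilobase in control testes at P16. CPM, the library's reads set to a common total within a kit, were divided by the length in kilobases of the longest coding transcript in GENCODE M21. Tex15 (ENSMUSG00000009628), needed in male germ cells for recombinase loading, was the highest at P16, with 57.7 and 61.5 CPM per kilobase in the 2 control libraries. Psmc3ip (ENSMUSG00000019303), which encodes HOP2, followed at 40.8 and 43.9, Dmc1 (ENSMUSG00000022429) at 38.3 and 38.7, and Meiob (ENSMUSG00000024155) at 32.6 and 35.5. These 4 did not overlap one another. The next 4 overlapped: Hsf2bp (ENSMUSG00000002076) had a mean of 18.7, Rad51ap2 (ENSMUSG00000086022) also 18.7, Mnd1 (ENSMUSG00000033752), the partner of HOP2, 18.0, and Brca2 (ENSMUSG00000041147) 17.9 CPM per kilobase. Spata22 (ENSMUSG00000112920), the partner of MEIOB, was the lowest at 4.15 and 4.40. The Spata22 level per length is not comparable with the others, because 1025 of its 1274 transcript bases lie in exons of Gm49340, an annotated gene on the same strand. For Psmc3ip, 385 bases of exon overlap Mlx on the opposite strand, and whether reads were counted by strand is not given in the sources used here. In Cre controls at P16, made with the second kit, the order differed: Psmc3ip was the highest at a mean of 33.2 (26.3 to 39.7 over 4 libraries) and Tex15 stood at 21.0 (18.6 to 24.2) CPM per kilobase. This difference in order was not tested, because among the controls the kit, the sequencing run and the control type cannot be told apart.

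**Figure D1:**
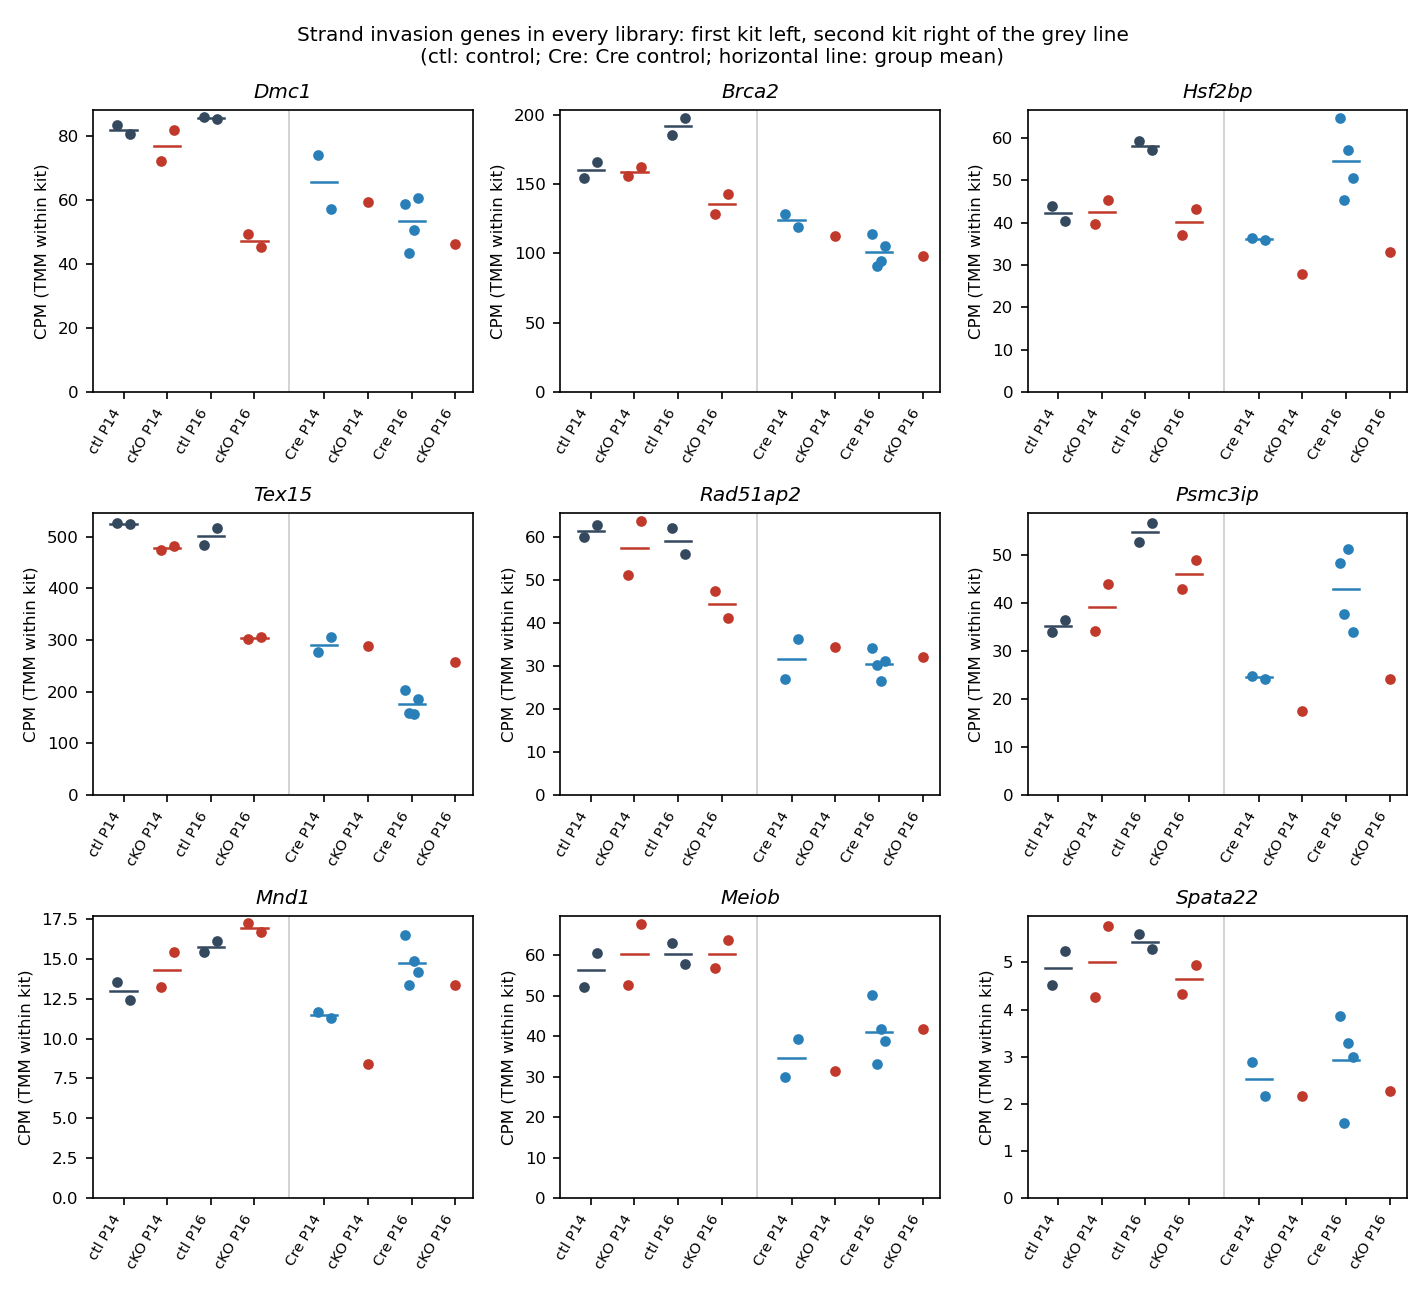
Level of each strand invasion gene in every library (CPM, scaled within a kit; each axis starts at 0). Points are libraries and horizontal lines are group means; control (ctl) is dark, Cre control (Cre) blue and cKO red. In the first kit, left of the grey line, Tex15 was at 484.7 and 517.2 in controls at P16, above both cKO libraries, while in the second kit its cKO library was above all 4 Cre controls.

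Some of the cofactors rose between P14 and P16 in control testes, while the recombinase Dmc1 did not pass the test. In controls of the first kit, 3 of the 9 genes rose and 0 fell, against 13.3% of 18581 genes tested that rose and 6.67% that fell. Psmc3ip was at 33.9 and 36.5 CPM at P14 and at 52.7 and 56.7 at P16, with no overlap. Its log2 change was 0.63 (SE 0.11, adjusted limma p 0.00385). Hsf2bp rose by 0.46 (SE 0.09, adjusted limma p 0.00597), from 40.5 and 44.0 CPM to 57.1 and 59.4. Brca2 rose by 0.26 (SE 0.06, adjusted limma p 0.0188), from 154.6 and 165.9 CPM to 185.5 and 197.7. The other 6 had log2 changes from -0.07 for Tex15 to 0.28 for Mnd1, with adjusted limma p of 0.0713 for Mnd1. Without control P16 library 1, Brca2 (adjusted limma p 0.0549) and Hsf2bp (0.0608) were no longer called, and Brca2 was also lost without control P14 library 1 (0.136) or control P16 library 2 (0.143). Mnd1 was called without cKO P14 library 1 (adjusted limma p 0.0293) or 2 (0.0306), which enter this fit through the shared estimate of the spread.

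Cre controls showed a rise of Psmc3ip and Hsf2bp too, and a fall of Tex15. Of the 9 genes, 2 rose, against 9.06% of 18819 genes tested, and 1 fell, against 2.75%. Psmc3ip was at 24.2 and 24.8 CPM at P14 and at 34.0 to 51.3 over the 4 libraries at P16, a log2 change of 0.78 (SE 0.17, adjusted limma p 0.0133). Hsf2bp was at 35.9 and 36.3 CPM at P14 and at 45.4 to 64.7 at P16, a log2 change of 0.58 (SE 0.14, adjusted limma p 0.0242). Both genes were higher in every P16 library than in either P14 library. Tex15 fell by 0.73 on the log2 scale (SE 0.12, adjusted limma p 0.00318), from 275.9 and 305.9 CPM to 156.6, 159.4, 186.5 and 203.0. Only P16 library 1 shares a sequencing run with the P14 libraries, per the column names, and it held 203.0 CPM of Tex15, 48.2 of Psmc3ip and 64.7 of Hsf2bp, each on the same side of the P14 values. Hsf2bp lost its call without Cre control P14 library 1 (adjusted limma p 0.171) or 2 (0.0832) or P16 library 3 (0.0899), and Psmc3ip without P14 library 1 (0.119) or 2 (0.0589). The change of Tex15 with age differed between the control types by -0.66 (SE 0.16) on the log2 scale, which did not pass the test (adjusted limma p 0.639; 0% of 19782 genes were called, in a test chosen after seeing the data, and 1390 were under an unadjusted p of 0.05).

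**Figure D2:**
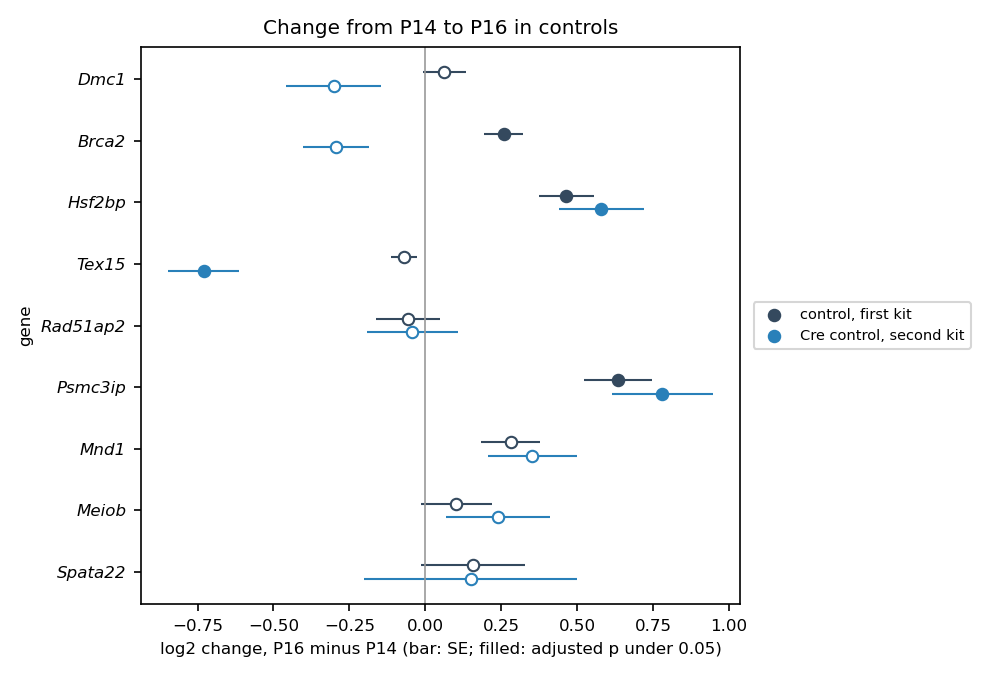
Log2 change from P14 to P16 of each gene in control libraries (dark, first kit) and Cre control libraries (blue, second kit), with the standard error as a bar and filled points for an adjusted p under 0.05. Psmc3ip and Hsf2bp are filled and right of 0 in both, and Tex15 is filled and left of 0 in Cre controls.

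At P14, shortly after tamoxifen, 0 of the 9 genes were called between cKO and control, against 0.00579% of 17270 genes tested (1 gene, Ythdc2). Dmc1 was at a deposited value of 1999 and 1943 in controls and 1737 and 1978 in cKO, and Brca2 at 3715 and 4009 against 3752 and 3925. Groups overlapped for these and for 6 others. Tex15 was the exception, at 12660 and 12653 in controls and 11444 and 11646 in cKO, a log2 change of -0.13 (SE 0.05, unadjusted limma p 0.0240, adjusted p 1.00). It was the 1 gene of the 9 under an unadjusted p of 0.05, which 2.37% of all genes were, and groups that did not overlap with cKO lower were found for 14.5% of genes. The median log2 change of the 9 was 0.01, as was that of all genes tested. The remaining changes lay between -0.10 for Rad51ap2 and 0.14 for Psmc3ip and Mnd1. Psmc3ip was at 814.9 and 883.2 in controls and 823.4 and 1064 in cKO, and Meiob at 1256 and 1462 against 1272 and 1639. All 9 genes were higher in cKO library 2 than in cKO library 1. Pachytene and later markers summed to 21392 and 23852 in controls and to 21934 and 31969 in cKO at P14 (119% of the control mean), and preleptotene to zygotene markers were at 96.5%; their part in these values was not tested.

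At P16, 6 of the 9 genes fell in cKO relative to control and 0 rose, against 19.9% of 17986 genes that fell and 18.6% that rose. These comprised the recombinase Dmc1 and the loading factors Brca2, Hsf2bp and Tex15, with Rad51ap2 and Psmc3ip. The median log2 change of the 9 was -0.43, against 0.00 over all genes tested. Values are on the log2(value + 1) scale of the deposited table with controls, from 2 libraries per group of the first kit.

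Dmc1, the meiotic recombinase, changed most. Its deposited value was 2229 and 2206 in controls and 1283 and 1154 in cKO, so both cKO libraries lay far below both controls. It fell by 0.87 on the log2 scale (SE 0.06, adjusted limma p 5.28e-07), to 54.9% of the control mean. Tex15 was at 12593 and 13417 in controls and at 7812 and 7842 in cKO, without overlap. It fell by 0.73 (SE 0.04, adjusted limma p 1.17e-07), to 60.2%. The loader Brca2 was at 4819 and 5129 in controls and 3322 and 3654 in cKO, again without overlap. The change was -0.51 on the log2 scale (SE 0.05, adjusted limma p 1.46e-05). Hsf2bp, which recruits BRCA2, was at 1542 and 1481 in controls and at 960.7 and 1108 in cKO. Neither cKO library reached a control, and the log2 change was -0.55 (SE 0.07, adjusted limma p 6.27e-05). Brme1 (ENSMUSG00000008129), which encodes a partner of HSF2BP, was named after its values were seen and changed by -0.47 (SE 0.06, adjusted limma p 1.31e-04). Rad51ap2 was at 1618 and 1458 in controls and at 1235 and 1051 in cKO, also apart. Its log2 change was -0.43 (SE 0.08, adjusted limma p 8.11e-04).

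Of the cofactors of the invading filament, Psmc3ip fell at P16 in the first kit, and Mnd1, Meiob and Spata22 did not pass the test. Differences between these genes were not tested. Psmc3ip was at 1369 and 1472 in controls and at 1113 and 1253 in cKO, with a log2 change of -0.26 (SE 0.07, adjusted limma p 0.00744). Its partner Mnd1 was at 400.1 and 418.7 in controls and at 447.4 and 426.7 in cKO, higher in both cKO libraries, with a log2 change of 0.09 (SE 0.08) that did not pass the test (adjusted limma p 0.398). Meiob overlapped between the groups, at 1637 and 1501 against 1478 and 1632, with a log2 change of -0.01 (SE 0.06, adjusted limma p 0.892). Spata22 was at 145.5 and 137.1 in controls and 112.6 and 126.4 in cKO, which did not overlap, but its log2 change of -0.24 (SE 0.14) did not pass the test (adjusted limma p 0.193). In all, 7 of the 9 genes had cKO values wholly below the controls, against 35.4% of genes tested, and 1 had values wholly above, against 34.2%. Psmc3ip lost its call without control P16 library 2 (log2 change -0.21, adjusted limma p 0.0898). With limma's variance trend left out, 3 of the 9 genes were called lower, against 5.92% of all genes, and Hsf2bp (adjusted p 0.0530), Rad51ap2 (0.0905) and Psmc3ip (0.130) did not.

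The difference between cKO and control changed between the stages for 4 of the 9 genes, all with a lower log2 change at P16 than at P14, against 4.49% of 18581 genes tested (2.9% were higher). This was an interaction fitted on the first-kit libraries of both stages, which shares its libraries with the comparisons above. For Dmc1 the difference was -0.76 (SE 0.10, adjusted limma p 0.00319) and for Tex15 it was -0.58 (SE 0.06, adjusted limma p 9.49e-04). For Hsf2bp it was -0.54 (SE 0.13, adjusted limma p 0.0351) and for Brca2 -0.49 (SE 0.09, adjusted limma p 0.0154). Psmc3ip (-0.39, adjusted limma p 0.165) and Rad51ap2 (-0.32, 0.224) did not pass the test, nor did Spata22, Meiob and Mnd1, which ranged from -0.26 to -0.03. Without control P14 library 1, control P16 library 1 or 2, or cKO P16 library 1, the adjusted limma p was 0.0547, 0.0507, 0.0774 and 0.0529 for Brca2 and 0.0613, 0.137, 0.101 and 0.109 for Hsf2bp. Without control P14 library 2, Hsf2bp was at 0.110, and without cKO P14 library 1, Psmc3ip (0.00664) and Rad51ap2 (0.0215) were called. Without the variance trend all 4 lost their call (adjusted limma p 0.0571 to 0.149).

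**Figure D3:**
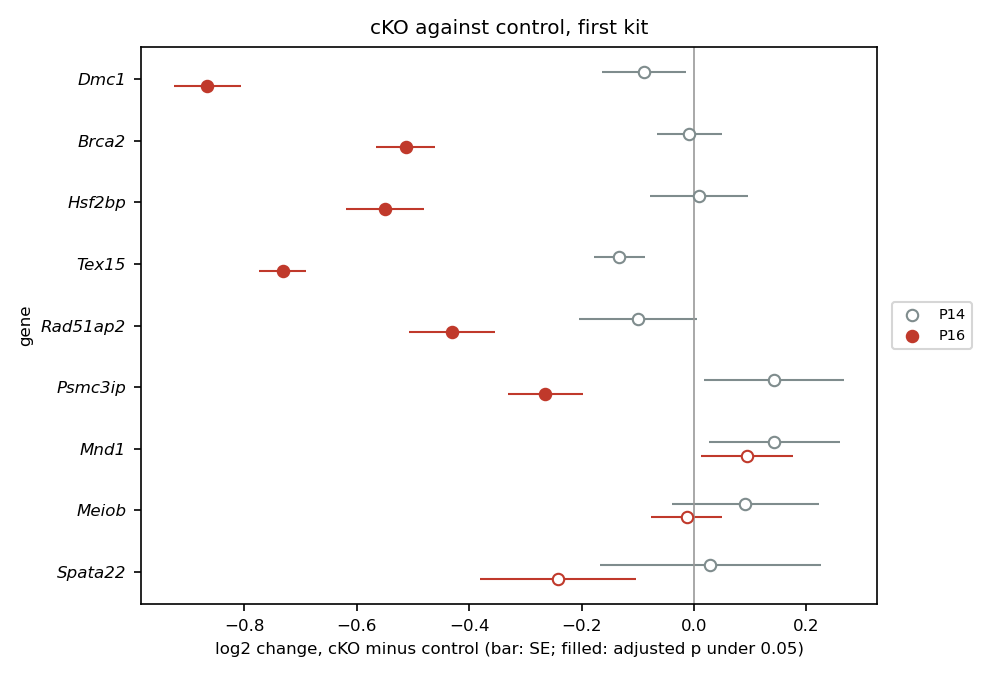
Log2 change of cKO against control in the first kit at P14 (grey) and P16 (red), with the standard error as a bar and filled points for an adjusted p under 0.05. At P14 no point is filled, and at P16 the 6 filled points run from -0.87 for Dmc1 to -0.26 for Psmc3ip.

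The Cre controls gave a second comparison, within the second kit, of 1 cKO library with 4 Cre controls at P16. Hsf2bp and Psmc3ip were the lowest relative to the controls, and Tex15 was higher. Hsf2bp was at 1272, 892.2, 1138 and 999.7 in Cre controls and 635.3 in cKO, below all 4. Psmc3ip was at 948.2, 742, 1021 and 672 in Cre controls and 464.5 in cKO, also below all 4. The log2 changes were -0.75 (SE 0.19, adjusted limma p 0.226) for Hsf2bp and -0.84 (SE 0.23, adjusted limma p 0.240) for Psmc3ip. Mnd1, at 262.2 to 324.1 in Cre controls and 256.8 in cKO, was just below the lowest Cre control. As CPM scaled within the kit it was at 13.35, against 13.34 in Cre control library 2, and so overlapped. Dmc1 stood at 1155, 850.8, 1003 and 1199 in Cre controls and 892 in cKO, which is inside their range. Brca2 was at 1792 to 2238 in Cre controls and 1893 in cKO, Rad51ap2 at 529.5 to 671.2 and 618.1, and Meiob at 649.7 to 987.2 and 802, all within the range. Tex15 was at 3990, 3134, 3116 and 3684 in Cre controls and at 4964 in cKO, above all 4, with a log2 change of 0.52 (SE 0.15, adjusted limma p 0.244). In this kit limma called 0 of the 9 genes and 0% of 18639 genes in all, with 2740 genes under an unadjusted p of 0.05. On the deposited scale, groups did not overlap with cKO lower for 3 of the 9, against 30.3% of genes, and with cKO higher for 1, against 23.8%. Cre control library 1, the only control at P16 that shares the cKO library's sequencing run, held 1272 of Hsf2bp, 948.2 of Psmc3ip, 1155 of Dmc1 and 3990 of Tex15.

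At P14 the second kit held 1 cKO library and 2 Cre controls. Psmc3ip was at 455.2 and 439.5 in Cre controls and 318 in cKO, Mnd1 at 214.3 and 204.4 against 153, and Hsf2bp at 666 and 650.1 against 508.1. Brca2 was at 2359 and 2155 against 2042. These 4 lay below both Cre controls, where 33.3% of genes did, and the other 5 lay between the Cre controls. Spata22 was among these 5 by the deposited values, but as CPM it was at 2.172 in cKO and 2.174 in the lower Cre control. Tex15 was at 5063 and 5545 in Cre controls and 5230 in cKO. None of the 9 was called by limma, with adjusted p of 1.00 for each, while 0.04% of 17481 genes were called in all (7, all of them lower). In the deposited table, with the 2 cKO libraries of the other kit included, the log2 changes of the 9 ran from 0.10 to 0.69 and limma called 0 of them and 0% of 18196 genes. Of these 18196 genes, 705 had an unadjusted p below 0.05, and over all genes edgeR called 0 and DESeq2 8. Without cKO library 3, which leaves the genotypes in different kits, 6 of the 9 were called higher, against 13.6% of 17924 genes called higher and 21.3% lower.

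Over both kits at P16, with the kit as a covariate and both control types as 1 group, 3 of the 9 genes fell and 0 rose, against 7.49% of 19932 genes that fell and 6.07% that rose. This fit contains the first-kit libraries again. Hsf2bp changed by -0.63 (SE 0.11, adjusted limma p 0.00604), Dmc1 by -0.57 (SE 0.14, adjusted limma p 0.0231) and Psmc3ip by -0.51 (SE 0.15, adjusted limma p 0.0414). Brca2 (-0.31, adjusted limma p 0.0619), Rad51ap2 (-0.21, 0.230) and Tex15 (-0.17, 0.613) were not called, and Meiob stood at 0.00 (0.993). Hsf2bp kept its call without any single library, with adjusted limma p from 0.00383 to 0.0471. Dmc1 lost its call without control P16 library 1 (0.0996) or 2 (0.0978) or cKO library 1 (0.0944) or 2 (0.0858). Psmc3ip lost its call without the same 4 libraries (0.0530 to 0.116) and without cKO library 3 (-0.26, 0.390). It also lost it without the variance trend (0.111), by edgeR (0.0506) and with the replicate block (0.0910), and Dmc1 lost its call without the trend (0.0801). Brca2 was called without Cre control library 2 (0.0389) or cKO library 3 (0.0181), and Tex15 was called without cKO library 3 (-0.73, 0.00564). Without cKO library 3 the second kit holds only Cre controls, so the changes then come from the first kit alone. At P14 the same fit called 0 of the 9 genes and 0.00529% of 18892 in all (1 gene).

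The cKO effect on Tex15 at P16 differed between the kits by 1.27 on the log2 scale (second minus first, SE 0.17, adjusted limma p 0.0485), in a test chosen after seeing the data. It was 1 of 9 genes called of 19932 (0.0452%), and the other 8 strand invasion genes were not called, with differences from -0.56 for Psmc3ip to 0.65 for Dmc1. The call was lost without control library 1 (adjusted limma p 0.309) or 2 (0.285), cKO library 1 (0.271) or 2 (0.219), or Cre control library 2 (0.0657) or 3 (0.108), and without the variance trend (0.141). Kit, sequencing run, control type and the single cKO library of the second kit cannot be told apart here. In the deposited table with Cre controls, which sets all 3 cKO libraries against Cre controls of another kit for cKO libraries 1 and 2, Tex15 was at 6398 and 6465 in those 2 libraries. There it was the 1 gene of the 9 called, higher by 0.77 (SE 0.13, adjusted limma p 0.0367), against 4.3% of 19200 genes called higher. That call was lost within the second kit and with the kit as a covariate, which by construction give the same change from 1 cKO library. It was also lost without any single library except cKO library 3 (adjusted limma p 0.0720 to 0.191). Without cKO library 3, whose removal leaves only cKO libraries of the other kit, 4 of the 9 were called higher, against 20.2% of 19046 genes called higher and 29.3% lower.

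**Figure D4:**
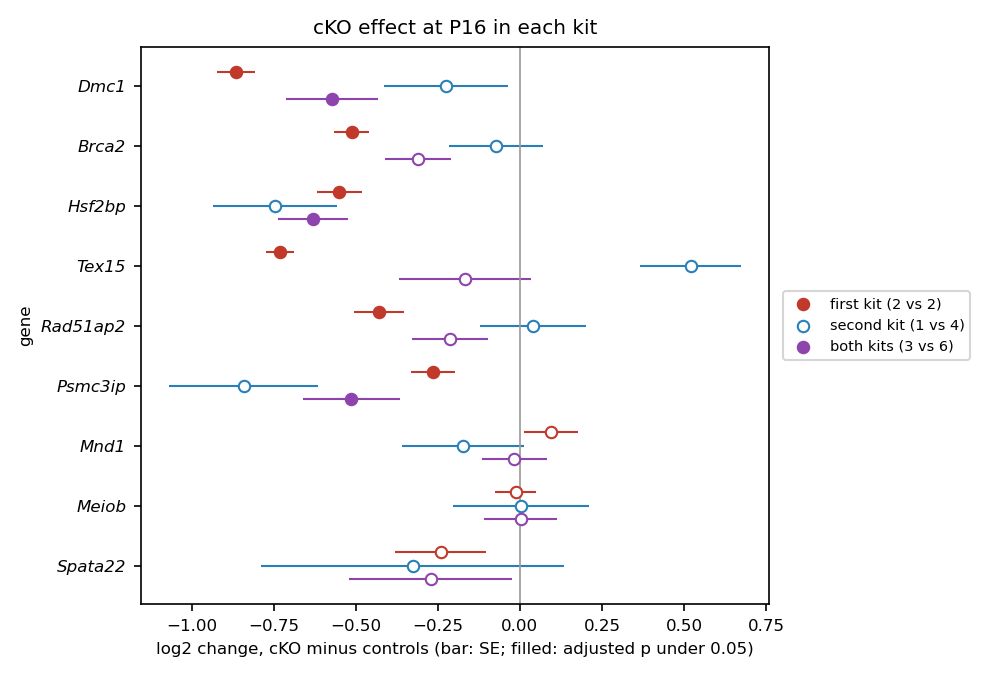
Log2 change of cKO against controls at P16 within the first kit (red, 2 against 2 libraries), within the second kit (blue, 1 against 4) and over both with the kit as a covariate (purple, 3 against 6), with the standard error as a bar and filled points for an adjusted p under 0.05. Hsf2bp, Psmc3ip, Dmc1, Brca2 and Spata22 lie left of 0 in all 3, and Tex15 lies left of 0 in the first kit and right of it in the second.

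Genes that work beside the 9 in recombination were also lower at P16 in the first kit. Of 20 tested genes for recombination mediators that also act in mitotic cells, 14 fell and 0 rose, with a median log2 change of -0.36, against 19.9% of all genes tested that fell and 18.6% that rose. The largest falls were in the helicase gene Brip1 (-0.85), in Rad51b (-0.83), in Rbbp8 (-0.64), which encodes a resection factor, and in Xrcc3 (-0.53). In the second kit, with 1 cKO library, their log2 changes were 0.01 for Brip1, 0.23 for Rad51b, -0.43 for Rbbp8 and -0.31 for Xrcc3. Of 17 tested genes for single-strand DNA handling and resection, 13 fell and 1 rose, with a median of -0.47, against the same shares of all genes. The largest falls were in Dna2 (-0.75), a nuclease, Atm (-0.67), the break-signalling kinase, Nbn (-0.61), of the MRE11 complex, and Exo1 (-0.59), an exonuclease. Helb (0.34, SE 0.10, adjusted limma p 0.0187), a helicase, was the 1 that rose. In the second kit Dna2 was at -0.42, Atm at 0.12, Nbn at -0.27, Exo1 at -0.20 and Helb at 0.30. At P14 0 genes of either list were called, and over both kits at P16 7 of 20 and 10 of 17 fell, against 7.49% of all genes.

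Some markers of the cells in the tissue fell with these genes at P16 in the first kit, and others rose. Over all genes tested, 19.9% fell and 18.6% rose. All 19 preleptotene to zygotene spermatocyte markers fell (median -0.70), and their summed deposited value was 90092 and 93394 in controls and 63588 and 68700 in cKO. This was 72.1% of the control mean, while the summed value of the 9 strand invasion genes was 67.2%. Without Tex15, which has the highest values, the other 8 summed to 13759 and 13802 in controls and 9952 and 10406 in cKO, or 73.9%. Of 10 spermatogonial markers, 8 fell and 1 rose (sum 80.8%), and of 4 general germ cell markers 1 fell and 1 rose (sum 96.8%). Pachytene and later markers summed to 53023 and 53859 in controls and 59432 and 65837 in cKO (117%), with 7 of 12 higher and 1 lower. Somatic sums were higher too: Sertoli 99530 and 104911 against 120213 and 133634 (124%, 7 of 10 rose), and macrophage 2876 and 3089 against 3995 and 4063 (135%, 6 of 7 rose). Leydig (122%, 2 of 5 rose), peritubular (113%, 1 of 5) and endothelial sums (116%, 2 of 4) were above the controls as well. In the second kit at P16, preleptotene to zygotene markers summed to 41414 to 55939 in Cre controls and 36650 in cKO (76.4%), and pachytene and later markers to 31633 to 57755 and 34316 (77.8%). The 9 genes together were at 103.5% there. Tex15 alone made up 4964 of the 10569 summed in the cKO library, and the other 8 were at 83.2% of the Cre control mean. In whole testis, fewer cells of a type and less RNA per cell cannot be told apart, and the part of the marker changes in the results above was not tested.

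**Figure D5:**
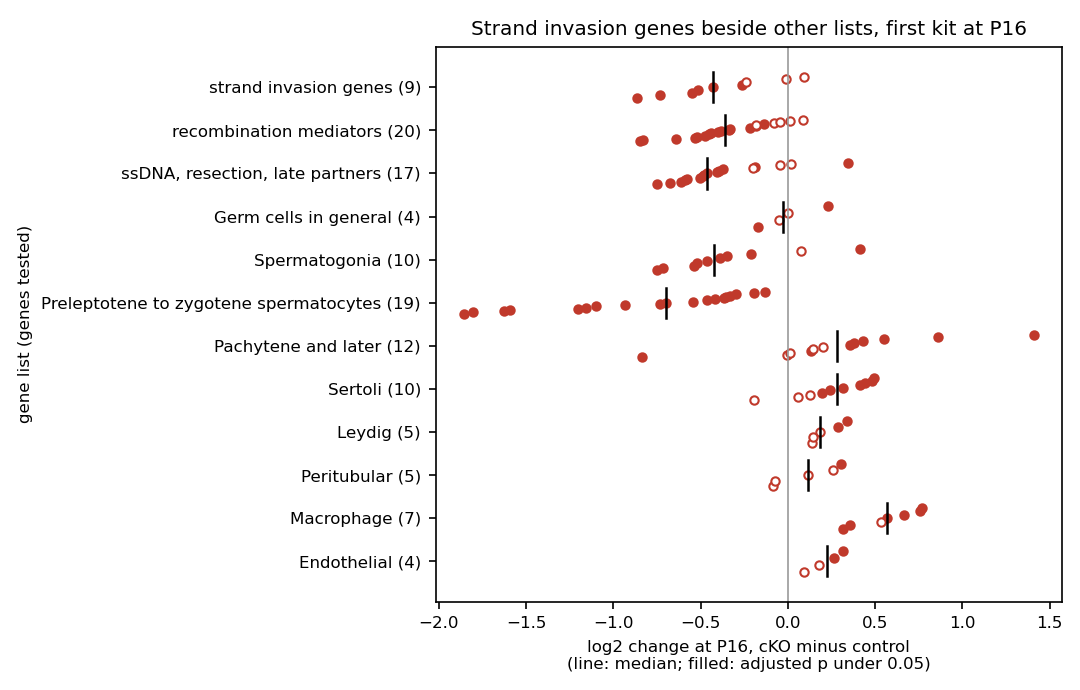
Log2 change of cKO against control at P16 in the first kit for every tested gene of each list (points; filled for an adjusted p under 0.05) with the list's median as a line. The median of the strand invasion genes (-0.43) lies between that of the preleptotene to zygotene markers (-0.70) and 0, while single genes run from -0.87 for Dmc1 to 0.09 for Mnd1. The macrophage markers (median 0.57) lie to the right.

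Across the 16 libraries some of the 9 genes varied together more closely than others. The values are log2 CPM centred within kit, and the points share kits, stages and genotypes, so the coefficients are a description. The 2 sets below were picked from these same coefficients, so higher r within them than between them was built in. Dmc1, Brca2, Rad51ap2 and Tex15 correlated with one another at r of 0.53 to 0.85 over 6 pairs. Hsf2bp, Psmc3ip and Mnd1 correlated at 0.70 to 0.90 over 3 pairs. Between these 2 sets r ran from -0.67 (Mnd1 and Tex15) to 0.19 over 12 pairs. Meiob and Spata22 correlated at 0.61 with each other. They belonged to neither set alone: with Hsf2bp, Psmc3ip and Mnd1, Meiob was at 0.53 to 0.59 and Spata22 at 0.41 to 0.60, and Spata22 was at 0.44 with Dmc1 and 0.41 with Brca2. The genes whose pattern was most like the mean of the 9, among 10572 genes with at least 100 reads in every library, were Iqcb1 (r 0.95), Sycp3 (0.94), Cep295 (0.93), Tra2b (0.93) and Sycp1 (0.93). Sycp1 and Sycp3 encode parts of the synaptonemal complex, which joins paired homologs. The strand invasion genes themselves followed this mean less closely, with r from 0.29 for Tex15 to 0.74 for Hsf2bp. Spata22 had too few reads to be ranked. The mean pools the 2 sets above, between which r was at most 0.19.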

How the data were processed

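RNA of mouse testes was analysed in 16 libraries from 4 deposited tables, each holding 1 stage and 1 control type. The authors deposited a scaled signal: each gene's read count over its library's size factor, set within each table alone. Per the submitters' processing notes, Trim Galore, STAR, HTSeq and DESeq2 were used with GRCm39 (mm39). Versions and the strand setting are not given in the sources used here. Whole reads were recovered for 100% of values (within 0.001 of a whole number). The cKO libraries 1 and 2 occur in both tables of a stage and were counted once per fit.

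Names came from GENCODE M21, with which 52081 of 55414 identifiers matched. The main test was limma 3.58.1 in R 4.3.3 (eBayes with trend) on log2(value + 1) within a table, for genes that reached 10 in 2 or more libraries. A pseudocount of 1 understates changes of genes with few reads. Fits over several tables used log2 CPM (TMM, prior count 1) of recovered reads, under the same minimum in reads. P-values were adjusted over all genes tested (Benjamini-Hochberg), and called means an adjusted p under 0.05. edgeR 4.0.16 and DESeq2 1.42.0 on recovered reads were alternatives, as were other pseudocounts, filters and scalings, no trend, the replicate block, the kit as a covariate, the second kit alone and each library left out. The limma fit of 2 against 2 libraries was tested on simulated data modelled on the first kit at P16. The other designs were not. The simulation gave every gene the same spread beyond counting noise and changed far fewer genes than were called at P16. It therefore cannot say how many of the real calls are correct.

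The 9 genes are named throughout. Also named are Ythdc2, up to 4 called genes per direction with the largest change in each of 2 pathway lists at P16, and the 5 genes with the most similar pattern over 16 libraries. The genes and lists were chosen with earlier results of these data known. Firrm, listed with the recombination mediators, matched no identifier, and 1 other gene fixed for that list is not reported here. Promoter windows are from RefSeq's GRCm38.p6 table, and no coordinates on GRCm39 were used here.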

Additional observations from a re-analysis of the deposited data

Results flagged for a closer look

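For 4 of the 9 genes, and for Ythdc2, the effect of cKO against control differed between P16 and P14 by an interaction test in the first kit. Of 18581 genes tested, 4.49% were lower by this test and 2.9% higher. The differences, P16 minus P14, were -0.76 for Dmc1, -0.49 for Brca2, -0.54 for Hsf2bp, -0.58 for Tex15 and -0.72 for Ythdc2 itself (adjusted limma p 0.00822). All have 2 libraries per group. Without the variance trend the 4 genes lost their call, and Brca2 and Hsf2bp also lost it without some single libraries. For Tex15 the cKO effect at P16 also differed between the kits, by 1.27 (second minus first), which rests on 1 cKO library in the second kit. That test was chosen after seeing the data, and its call was lost without the variance trend or without several single libraries. The 9 genes and Ythdc2 were also tested for a library far from the others among the 4 Cre controls at P16, and 0 of the 10 tests found one.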

How the results depend on the processing

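Of 1430 values recomputed under alternatives, 1225 kept their direction and their side of the threshold, 64 lost a call, 24 gained one, 32 counts moved and 85 changed sign. The cause was not tested. With limma's trend left out, 3 of the 9 genes were called lower against control at P16 (5.92% of all genes). Over both control types at P16 it was 1 (2.97%), and for the difference between stages 0 (0.554%). The number called higher was then 0 against Cre control at P16 (0.0938% of all genes) and 1 with age in controls (8.65%). With age in Cre controls, 0 were called higher and 0 lower (the share over all genes is not given here). Without cKO library 3, which leaves the genotypes in different kits, 6 were called higher against Cre control at P14 (13.6% of all genes, with 21.3% lower). At P16 it was 4 (20.2%, with 29.3% lower). With each library left out, the number called higher ran from 0 to 6 against Cre control at P14, from 0 to 4 at P16, from 1 to 4 with age in controls and from 0 to 2 with age in Cre controls. The number called lower ran from 1 to 4 over both control types at P16 and from 2 to 6 for the difference between stages. The share of all genes called higher against Cre control at P14 also went from 0% in the main fit to 13.6% without cKO library 3. Shares over all genes are not given for each left-out library, so these ranges are not results about the 9 genes in particular. Against Cre control at P16, 0 were called higher with the kit as a covariate or in the second kit only.

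Against Cre control, the kit as a covariate and the second kit alone gave the same values by construction. The controls there were all made with the second kit. These values rest on 1 cKO library per stage and turned several directions. At P14 these were -0.14 for Dmc1, -0.13 for Meiob, -0.21 for Spata22, -0.14 for Brca2, -0.37 for Hsf2bp, -0.49 for Psmc3ip, -0.45 for Mnd1 and -0.02 for Tex15. At P16 they were -0.33 for Spata22, -0.07 for Brca2 and -0.17 for Mnd1. Over both control types, Meiob changed sign at P14 with no filter (0.0025), DESeq2 size factors (0.0026), edgeR (0.0077) and DESeq2 (0.0086), and at P16 with no filter (-0.0046), edgeR (-0.0039) and DESeq2 (-0.0045).

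Replicate numbers are shared between groups, but no label says that a number marks a litter, batch or day. Deviations of samples with the same number correlated at 0.20 at P14 and 0.08 at P16 in the first kit. With the replicate block, 6 of the 9 genes were called lower against control at P16 (23.4% of all genes) and 5 for the difference between stages (6.59%). The block gave 6 called higher against Cre control at P14 (15.8% of all genes, with 22.5% lower). There it leaves cKO library 3 without a partner, so cKO libraries of the first kit are set against Cre controls of the second. Against Cre control at P16 it gave 0 higher (0% of all genes), and with age in Cre controls 1 higher (share over all genes not given here). Signs that turned under the block were Meiob 0.087, Spata22 0.025, Hsf2bp 0.0044, Psmc3ip 0.14 and Mnd1 0.14 over both control types at P14, Meiob -0.021 and Mnd1 0.00089 over both at P16, and Spata22 -0.019 and Rad51ap2 0.035 with age in Cre controls.

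Leaving out each library turned signs near 0. Against control at P14, the ranges were -0.18 to 0.0052 for Dmc1, -0.091 to 0.27 for Meiob, -0.19 to 0.25 for Spata22, -0.063 to 0.047 for Brca2, -0.089 to 0.11 for Hsf2bp, -0.043 to 0.33 for Psmc3ip and -0.26 to 0.057 for Rad51ap2. At P16 that of Meiob was -0.085 to 0.059. Against Cre control they were -0.012 to 0.37 for Dmc1, -0.069 to 0.34 for Hsf2bp and -0.073 to 0.42 for Mnd1 at P14, and -0.36 to 0.22 for Psmc3ip at P16. Over both control types at P14 they were -0.095 to 0.087 for Meiob, -0.18 to 0.025 for Spata22, -0.22 to 0.0044 for Hsf2bp, -0.25 to 0.14 for Psmc3ip, -0.19 to 0.14 for Mnd1 and -0.10 to 0.090 for Rad51ap2. At P16 they were -0.040 to 0.055 for Meiob and -0.041 to 0.096 for Mnd1. For the difference between stages they were -0.29 to 0.080 for Meiob and -0.17 to 0.064 for Mnd1. With age they were -0.0030 to 0.21 for Meiob and -0.13 to 0.022 for Rad51ap2 in controls, and -0.052 to 0.41 for Spata22 and -0.26 to 0.17 for Rad51ap2 in Cre controls. Where an arm kept 1 library, it was assumed to vary like the others. Few reads on Spata22 limit its precision.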
